A study of Rattus norvegicus with 12 samples.

Results

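A biliary fistula (BF) drains bile out of the body, so that bile acids (BA) no longer return from the intestine to the liver. In 58 genes of rat liver, RNA with the fistula stood on one side of the level in sham-operated rats (Control) at 0, 4, 12 and 24 h after 2/3 partial hepatectomy (PH), and by at least 2-fold at 3 or more of these times. Of these, 21 were higher and 37 lower in BF. They were picked out of 8459 genes whose mean over the 12 columns of the table was 1 RPKM or more (reads per kilobase of transcript, scaled to the size of the library), by the log2 ratio of BF to Control after 1 RPKM was added to each value. The 21 genes are 0.248% and the 37 genes 0.437% of the genes compared. Because these same ratios chose the genes, their values are a description, with no test.

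Male Sprague Dawley rats, 4 to 5 months old, received a BF or a sham fistula 24 h before PH, and liver was taken at PH (0 h) and 4, 12 and 24 h later. Rats of every group carried a duodenal catheter with a continuous saline infusion, so the groups share that surgery and fluid. A further group, called BA here, had a BF and an infusion of sodium taurocholate, a conjugated bile acid, through the catheter. Each group and time has 1 column, made by the authors from 2 sequencing runs, the first on a single rat and the second on a pool from 3 others, so no spread between rats can be given and a column cannot be split into its rats. The number of reads behind a column is unknown.

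The names of the fistula groups conflict between labels. By title and by the study's own scheme, BF columns are the fistula without BA, and BA columns the fistula with infusion. The sample descriptions exchange the pair, giving the bile acid infusion to the samples titled BF. Groups are named here by title, and BA values are given beside those of BF for some genes only. A gene printed without BA values may differ between BF and BA or be alike in both. BA columns were above Control at all 4 times in 12 of the 21 higher genes. They were below it at all 4 times in 30 of the 37 lower genes. The median log2 ratio of the lower genes was -1.77 in BF and -1.69 in BA at 0 h. At 12 h it was -1.50 and -0.63. The same shares over all genes were not counted, and Control is part of the rule, so nothing is read from these counts. Both groups are compared with the same Control columns, so their ratios are not independent of each other.

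Bile acids are made from cholesterol in hepatocytes. CYP7A1 starts the classic pathway, CYP27A1 and CYP7B1 serve the alternative one, and CYP8B1 adds the hydroxyl group that makes cholic acid. In the intact animal, bile acids that return to the liver repress the first enzyme through the receptor FXR, its target SHP and the intestinal hormone FGF15. The mevalonate pathway supplies the cholesterol, under the transcription factor SREBP-2.

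Hepatocyte markers were the most abundant of the marker sets in all 8 BF and Control columns. The summed level of 7 hepatocyte markers was 110207 to 158027 RPKM in Control and 107772 to 148258 RPKM in BF. The 6 cholangiocyte markers found summed to 28.2 to 44.3 RPKM in Control and 30.1 to 53.7 RPKM in BF, and 9 macrophage markers to 331 to 480 RPKM and 331 to 452 RPKM. The 8 neutrophil markers summed to 6.14, 42.6, 68.3 and 31.8 RPKM in Control and 25.6, 43.0, 53.4 and 40.5 RPKM in BF at 0, 4, 12 and 24 h, apart at 0 h and not in one direction later. The 5 erythroid markers summed to 494, 349, 242 and 312 RPKM in Control and 286, 280, 245 and 166 RPKM in BF. The 7 stellate cell and fibroblast markers summed to 37.6 to 73.5 RPKM in Control and 50.7 to 85.0 RPKM in BF, and 3 were higher and 1 lower in BF at all 4 times. The 11 pancreatic acinar markers summed to 148 RPKM in BF at 12 h, against 5.22 to 23.4 RPKM in the other 7 columns. In whole liver, fewer cells of a type and less RNA per cell cannot be told apart.

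The level of all genes was slightly off balance between the groups. Over the 8459 genes, the median of the log2 ratio was -0.18, -0.07, -0.07 and -0.11 at 0, 4, 12 and 24 h. Of all genes, 5.6% were higher and 27.3% lower in BF at all 4 times, so a lower value at every time is common in this table and a higher one is not. With the BF columns shifted so that this median is 0 at each time, the rule picked 29 higher and 31 lower genes. Among them were all of the 21 and 31 of the 37.

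**Figure D1:**
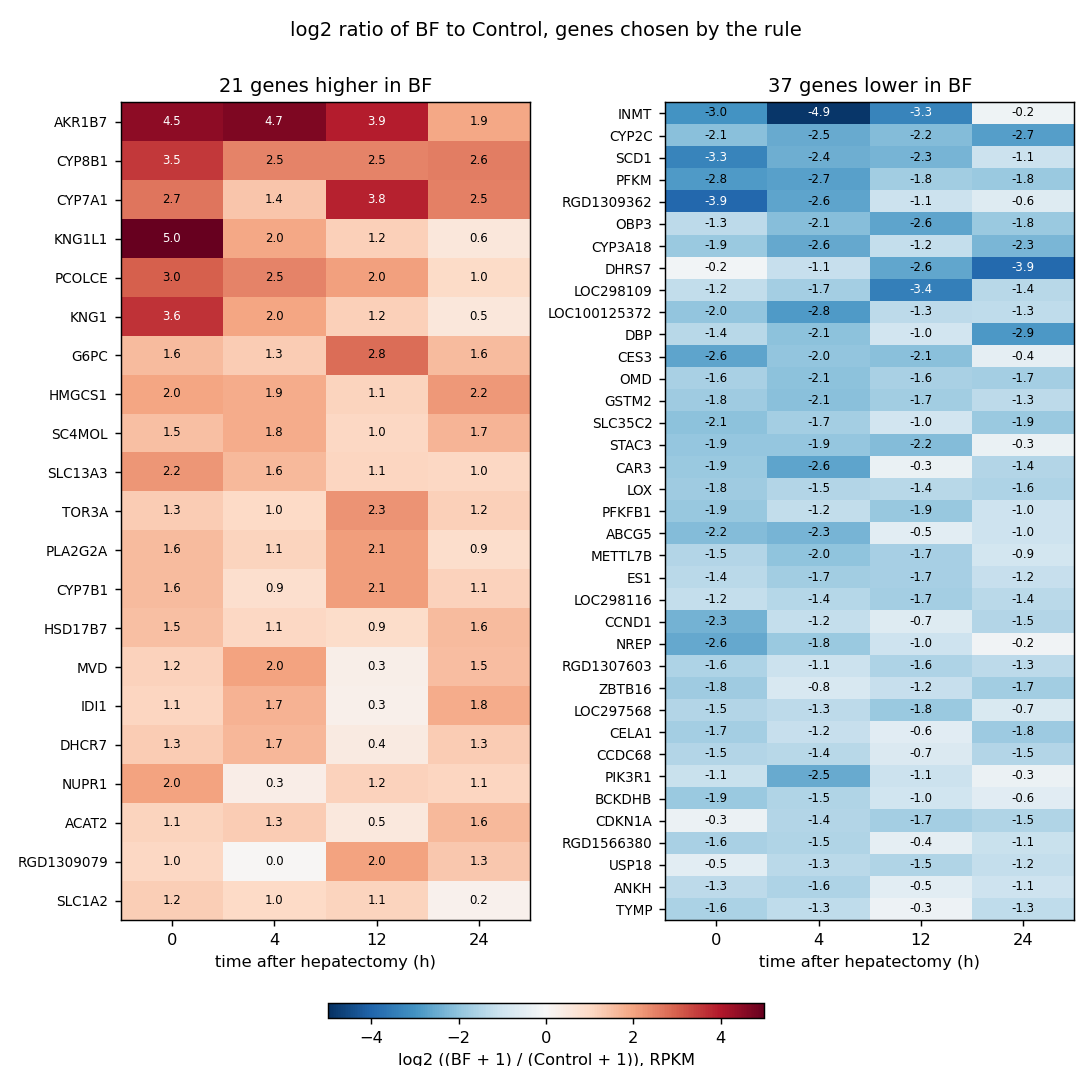
Log2 ratio of BF to Control (1 RPKM added) for the 21 genes higher and the 37 genes lower in BF, by time after PH in hours. Each cell is the ratio of 1 BF column to 1 Control column. Kininogens start far apart at 0 h and end close, whereas CYP2C differs by a like amount at each time. CYP8B1 differs most at 0 h and by a like amount at the later times.

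All 21 higher genes were at least 2-fold higher at 0 h, 18 at 4 h, 16 at 12 h and 16 at 24 h, where 1.73%, 1.19%, 1.84% and 0.768% of all genes were. Their median log2 ratio was 1.58 at 0 h and 1.35 at 24 h. Of the 37 lower genes, 34 were at least 2-fold lower at 0 h, 36 at 4 h, 27 at 12 h and 28 at 24 h, where 2.16%, 3.16%, 1.68% and 1.31% of all genes were. Their median was -1.77 at 0 h and -1.30 at 24 h. The rule uses these ratios, so nothing is read from the shares. The difference was 2-fold or more at all 4 times in 8 higher and 14 lower genes. The BF columns lay wholly above the Control columns in 13 of the 21 genes and wholly below in 9 of the 37. Over all genes this was so in 0.603% and 1.54%.

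The promoters of 4 of the higher genes are shown because these genes carry the 2 pathways described first. They are the 3 cholesterol synthesis genes with the largest mean ratio and CYP8B1, and were settled on after the motif matches had been seen. Each sequence is the RefSeq window on build GRCr8, 250 bases before to 50 bases after the annotated start, 5′ to 3′ on the strand of the gene. Capitals mark CCAAT on either strand in the first 3 and CAAGGNCA on either strand in CYP8B1, a short element of the kind that the nuclear receptor LRH-1 binds.
HMGCS1 (chr2:53382054-53382353, strand plus): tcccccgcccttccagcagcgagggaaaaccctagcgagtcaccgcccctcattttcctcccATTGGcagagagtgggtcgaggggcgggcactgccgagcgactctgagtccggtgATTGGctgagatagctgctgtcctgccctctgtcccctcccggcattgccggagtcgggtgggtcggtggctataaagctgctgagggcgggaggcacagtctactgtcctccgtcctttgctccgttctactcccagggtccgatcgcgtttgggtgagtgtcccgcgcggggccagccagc
SC4MOL (chr16:29746863-29747162, strand plus): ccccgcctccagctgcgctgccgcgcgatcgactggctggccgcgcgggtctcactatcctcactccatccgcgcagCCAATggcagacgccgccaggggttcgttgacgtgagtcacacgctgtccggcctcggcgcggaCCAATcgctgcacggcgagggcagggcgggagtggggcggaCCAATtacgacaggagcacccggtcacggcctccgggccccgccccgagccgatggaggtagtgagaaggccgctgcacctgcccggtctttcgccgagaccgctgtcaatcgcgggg
HSD17B7 (chr13:84722705-84723004, strand minus): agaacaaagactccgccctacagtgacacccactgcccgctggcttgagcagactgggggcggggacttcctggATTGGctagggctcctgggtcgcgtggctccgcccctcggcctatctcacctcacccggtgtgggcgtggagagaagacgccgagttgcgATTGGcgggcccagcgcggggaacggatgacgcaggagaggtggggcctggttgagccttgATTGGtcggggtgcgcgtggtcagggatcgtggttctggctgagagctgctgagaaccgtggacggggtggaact
CYP8B1 (chr8:130457543-130457842, strand minus): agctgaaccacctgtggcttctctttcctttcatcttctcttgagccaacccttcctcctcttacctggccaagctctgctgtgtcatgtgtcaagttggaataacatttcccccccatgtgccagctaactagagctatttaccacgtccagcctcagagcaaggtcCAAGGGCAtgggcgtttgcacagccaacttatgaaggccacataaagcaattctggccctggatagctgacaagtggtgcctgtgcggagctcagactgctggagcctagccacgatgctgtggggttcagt

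Of the 58 genes, 47 had such a window, and since KNG1 and KNG1L1 share 1, there were 46 windows. CCAAT was found in 9 of 18 windows of higher genes, 15 of 28 windows of lower genes and 5 of 7 windows of the cholesterol synthesis genes, against 37.7% of 27457 windows in all. CAAGGNCA was found in 1 of 18, 1 of 28 and 0 of 7, against 6.41% of all windows. The core of a sterol regulatory element (TCACNCCAC) was found in 0 of 18, 1 of 28 and 0 of 7, against 1.13%. A STAT motif (TTCNNNGAA) was found in 1 of 18, 4 of 28 and 0 of 7, against 8.68%, and a D box (TTANGTAA), which the clock factor DBP binds, in 1 of 18, 1 of 28 and 0 of 7, against 2.19%. All 5 were searched on both strands, TTCNNNGAA reads alike on both, and a match is only a match of letters.

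The bile acid synthesis genes CYP8B1, CYP7A1 and CYP7B1 met the rule, and CYP8B1 and CYP7A1 had the largest mean ratios of the higher genes after AKR1B7. CYP8B1 stood at 136, 164.5, 135 and 171 RPKM in Control and at 1576, 919, 767 and 1010 RPKM in BF at 0, 4, 12 and 24 h. The lowest BF value was above the highest Control value, and Control hardly moved over the 24 h. The log2 ratio was 3.52, 2.47, 2.50 and 2.55, with a mean of 2.76 ± 0.51 (SD over the 4 times). In the BA columns CYP8B1 was at 110, 161, 119 and 190 RPKM, close to Control.

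CYP7A1, which sets the rate of the classic pathway, was at 60.0, 4.59, 8.53 and 57.3 RPKM in Control and 387, 13.8, 136 and 334 RPKM in BF. Both groups were lowest at 4 h, and the BF column was above the Control column of its own time throughout. Across times the groups overlapped, since the 4 h value of BF was under the 0 and 24 h values of Control. The log2 ratio was smallest at 4 h, 1.40, and largest at 12 h, 3.84. BA columns were at 54.9, 1.81, 3.17 and 68.8 RPKM, under Control at 3 of the 4 times.

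CYP7B1 was at 11.2, 12.4, 14.7 and 9.28 RPKM in Control and 35.3, 23.3, 65.5 and 21.7 RPKM in BF. Every BF column was above every Control column, with the widest gap at 12 h, a log2 ratio of 2.08. BA columns lay at 17.2, 17.4, 19.6 and 9.69 RPKM, between the other groups at each time. CYP27A1, also of the alternative pathway, was higher in BF at all 4 times but less so, with a mean log2 ratio of 0.51. SLC27A2, a bile acid CoA ligase, had a mean of 0.45, and ACOT8, a peroxisomal thioesterase, was lower at all 4 times with a mean of -0.29.

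Of the 15 genes of the bile acid synthesis list, 5 were higher and 1 lower at all 4 times, against 5.6% and 27.3% of all genes, with a median mean log2 ratio of 0.17 against -0.11 over all genes. The 5 are CYP7A1, CYP8B1, CYP7B1, CYP27A1 and SLC27A2. AKR1B7, an aldo-keto reductase, was the gene with the largest mean ratio, 3.75 ± 1.24 (SD over the 4 times). It was at 0.21, 0.55, 1.60 and 63.2 RPKM in Control and 25.8, 38.6, 38.2 and 247 RPKM in BF. It was barely present in Control until 24 h, when both groups were at their highest. BA columns were at 0.95, 5.59, 3.34 and 37.2 RPKM. AKR1B7 was the only gene of the 15 in the aldo-keto reductase list that was higher at all 4 times.

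**Figure D2:**
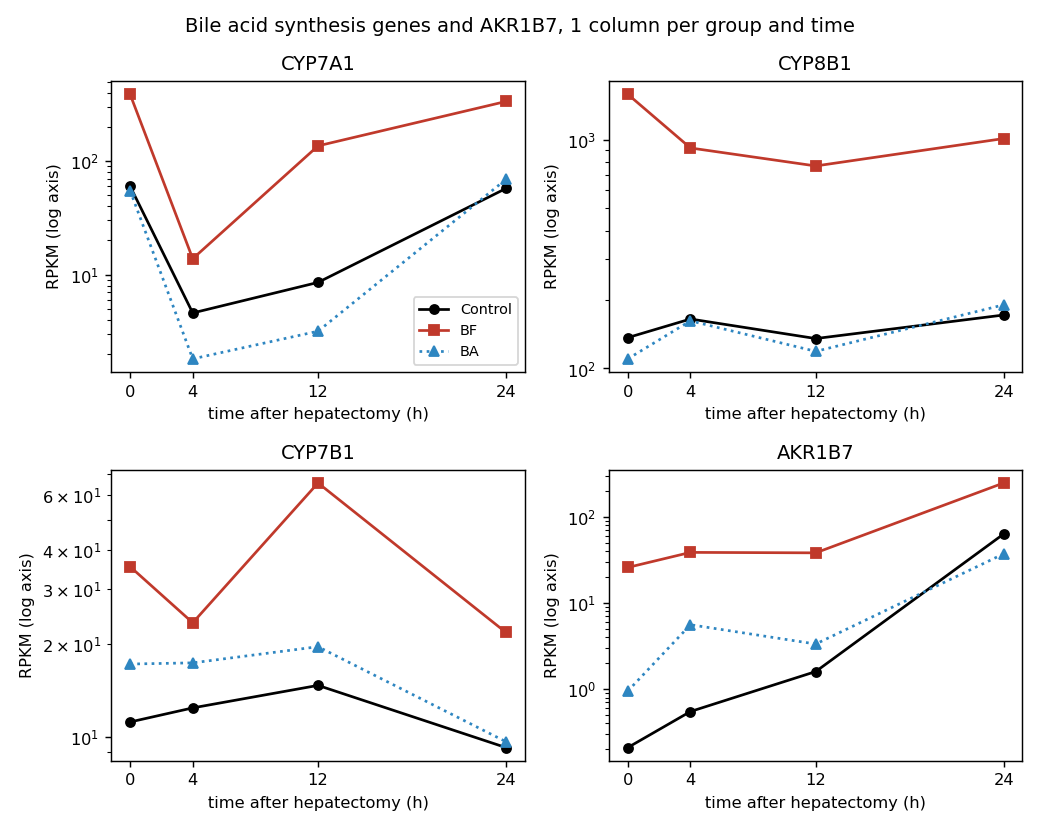
RPKM on a log axis of CYP7A1, CYP8B1, CYP7B1 and AKR1B7 by time after PH in hours. Each point is 1 column, for Control (black), BF (red) and BA (blue, dotted). BF lies above Control at all 4 times in each panel, and CYP7A1 is lowest at 4 h in each group, at 4.59 RPKM in Control and 13.8 RPKM in BF.

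Cholesterol synthesis genes were higher in BF almost throughout the pathway. Of 24 genes in this list, 21 were higher at all 4 times and 0 lower, against 5.6% and 27.3% of all genes. The median log2 ratio of the list was 0.97, 0.92, 0.43 and 1.20 at 0, 4, 12 and 24 h, smallest at 12 h. The 7 that met the rule were HMGCS1, SC4MOL, HSD17B7, MVD, IDI1, DHCR7 and ACAT2. All 7 were also above Control on average in the BA columns, with mean log2 ratios of 0.79 (MVD) to 1.28 (HMGCS1). Each was higher in BA than in BF at 0 h, and lower in BA than in BF at 4 and 24 h.

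HMGCS1 makes HMG-CoA at the entry to the pathway. It was at 211, 58.0, 134 and 112 RPKM in Control and 833, 214, 287 and 508 RPKM in BF. Every BF column was above every Control column, with a mean log2 ratio of 1.78 ± 0.47 (SD over the 4 times). BA columns were at 992, 98.2, 199 and 335 RPKM, also above Control at each time.

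SC4MOL (Msmo1 in RefSeq) removes methyl groups at C4 of the sterol ring. It was at 137, 37.7, 95.8 and 97.9 RPKM in Control and 391, 139, 197 and 318 RPKM in BF. Both genes were lowest at 4 h in either group. HSD17B7, which acts in the same demethylation step, was at 11.2 to 13.7 RPKM in Control and 25.2 to 40.1 RPKM in BF. Its promoter and those of HMGCS1 and SC4MOL are among the sequences above.

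MVD and IDI1 act between mevalonate and the isoprenoid units. MVD was at 10.8, 2.98, 10.8 and 9.14 RPKM in Control and 25.2, 15.2, 13.3 and 28.4 RPKM in BF. Their log2 ratios at 12 h were 0.28 and 0.27, whereas at 24 h they were 1.54 and 1.84. DHCR7, the last enzyme of one branch, and ACAT2, the thiolase that makes acetoacetyl-CoA, showed the same dip at 12 h, with log2 ratios of 0.45 and 0.51. Of the genes that did not meet the rule, CYP51 had a mean log2 ratio of 1.00 and EBP of 0.93. The 3 genes not higher at all 4 times were STARD4, a sterol carrier, with a mean of -0.22 and lower at 3 times, and INSIG1 and LSS, lower at 12 h alone with log2 ratios of -0.15 and -0.0079.

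**Figure D3:**
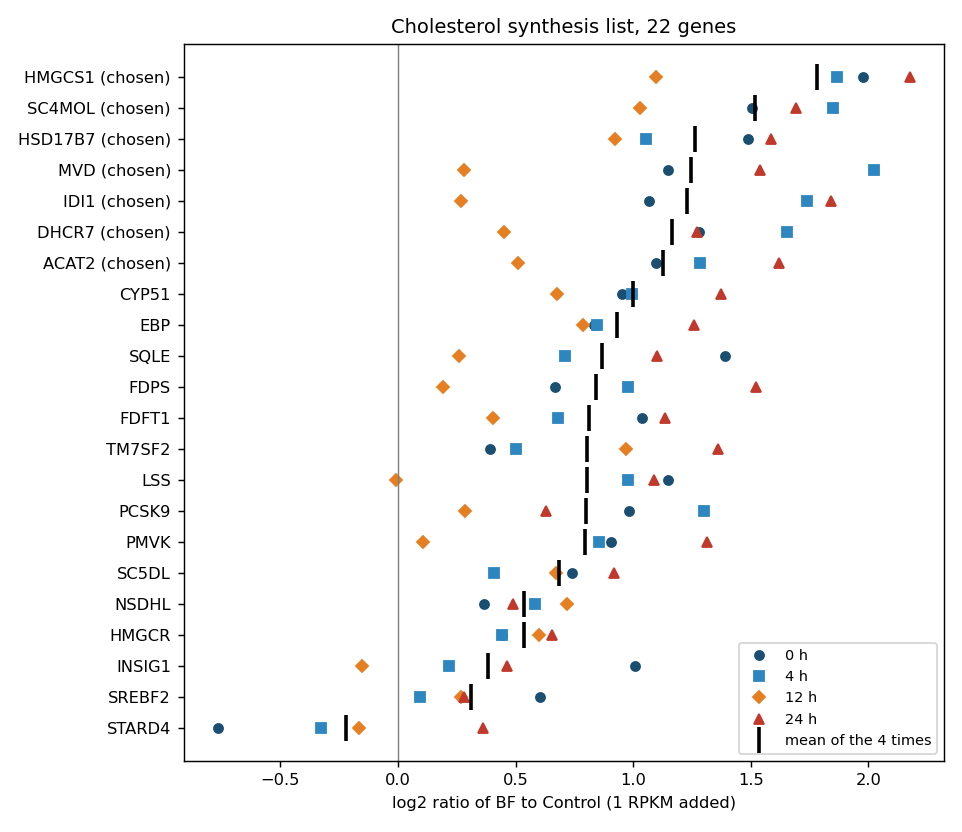
Log2 ratio of BF to Control (1 RPKM added) for 22 of the 24 genes of the cholesterol synthesis list. Coloured symbols are the 4 times, black bars their mean, and "chosen" marks the 7 genes that met the rule. The 12 h symbols of MVD, IDI1, DHCR7 and ACAT2 lie far left of their other times, at 0.27 to 0.51.

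Kininogens were the most abundant of the higher genes. KNG1L1, T-kininogen II, a cysteine protease inhibitor of rat plasma and an acute phase protein, was at 282, 2665, 5775 and 7073 RPKM in Control and 9380, 10313, 13342 and 10485 RPKM in BF. KNG1 was at 1036, 3411, 6544 and 8875 RPKM in Control and 12811, 13351, 14788 and 12979 RPKM in BF. Control was higher at each later time while BF stayed within a narrow range, and the log2 ratio of KNG1L1 went from 5.05 at 0 h to 0.57 at 24 h. Both rows match the same RefSeq gene and are close copies, so reads may have been divided between them. BA columns of KNG1L1 were at 9272 to 13196 RPKM.

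Other acute phase genes were also far apart at 0 h. In this list 7 of 24 were higher and 0 lower at all 4 times, and none met the rule. The median of the list was 1.45 at 0 h, 0.38 at 4 h, -0.14 at 12 h and 0.14 at 24 h. A2M, the protease inhibitor alpha-2-macroglobulin, measured 7.61 RPKM in Control and 1772 RPKM in BF before PH, against 1142 and 1272 RPKM after 24 h. LCN2, which binds bacterial siderophores, measured 3.03 and 808 RPKM before PH, against 1852 and 2815 RPKM after 24 h. The BA columns also stood far above Control for A2M, at 1892 RPKM before PH and 4421 RPKM after 24 h. The neutrophil marker sum given above also differed at 0 h, and its part in these values was not tested. Of the 7 negative acute phase genes, 3 were lower at all 4 times, among them TTR, the carrier of thyroid hormone, with a mean log2 ratio of -0.79.

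G6PC, the catalytic subunit of glucose-6-phosphatase and the last step of glucose release, was at 84.4, 92.5, 18.9 and 76.4 RPKM in Control and 254, 224, 139 and 232 RPKM in BF. BA columns of G6PC were at 113.5, 29.4, 58.7 and 276 RPKM, under Control at 4 h. All BF columns were above all Control columns, and the dip of Control at 12 h made the ratio largest there, 2.81. PFKFB1, the enzyme that sets fructose-2,6-bisphosphate in liver, lay the other way, at 49.2 to 86.6 RPKM in Control and 16.0 to 25.6 RPKM in BF. PFKM, the muscle form of phosphofructokinase, was at 6.26 to 18.5 RPKM in Control and 0.69 to 4.45 RPKM in BF. BA columns of PFKM were at 0.35 to 1.75 RPKM. In the gluconeogenesis and glycolysis list 2 of 20 genes were higher and 3 lower at all 4 times.

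The remaining higher genes do not share a list. PCOLCE, an enhancer of procollagen processing, was at 4.65, 3.76, 8.07 and 21.6 RPKM in Control and 44.1, 25.8, 36.5 and 43.1 RPKM in BF. SLC13A3, a transporter of dicarboxylates, had a mean log2 ratio of 1.48, TOR3A, a torsin ATPase, 1.44, and PLA2G2A, a secreted phospholipase A2, 1.41. NUPR1, a stress-induced nuclear protein, was at 58.9 RPKM in Control and 241 RPKM in BF before PH, against 67.1 and 84.1 RPKM 4 h after it. RGD1309079 (Dipk2a in RefSeq) had a mean of 1.12 with almost no difference at 4 h, 0.04. SLC1A2, a glutamate transporter, lay closest to the limit among the higher genes.

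The lower genes included CYP2C and CYP3A18 of the cytochrome P450 list. CYP2C (Cyp2c11 in RefSeq), the male-specific cytochrome P450 of rat liver, was at 2997, 2090, 916 and 623 RPKM in Control and 696, 363, 205 and 92.6 RPKM in BF. Both groups were lower at each later time and the log2 ratio stayed between -2.74 and -2.10, a mean of -2.38 ± 0.30 (SD over the 4 times). BA columns were at 926, 634, 462 and 143 RPKM, between BF and Control at each time.

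CYP3A18, another steroid-hydroxylating P450, was at 855, 639, 224 and 263 RPKM in Control and 235, 108, 98.0 and 52.9 RPKM in BF. In the list of cytochrome P450 families 1 to 3, 10 of 25 genes were lower and 4 higher at all 4 times, with a median mean log2 ratio of -0.42 against -0.11 over all genes. Lower at every time were also CYP2C13, at -0.70, and CYP2B1, at -1.13. CYP2B1 was near 0 at 12 and 24 h, at 0.26 and 0.43 RPKM in Control. BF was then at 0.22 and 0.33 RPKM, log2 ratios of -0.05 and -0.10. Higher at every time were CYP1A1, CYP1A2, CYP2A1 and CYP2C7, at 0.42 to 0.62. CYP2E1, the most abundant of the list, had a mean of -0.46 and was lower at 3 times.

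Alpha-2u globulins are pheromone carriers that male rat liver secretes into the urine. OBP3 was at 2668, 2381, 943 and 485 RPKM in Control and 1066, 537, 152 and 135 RPKM in BF. LOC298109 was at 1973, 1514, 1052 and 409 RPKM in Control and 843, 462, 97.5 and 157 RPKM in BF. LOC298116 was at 23256, 18468, 11198 and 10005 RPKM in Control and 10147, 6858, 3423 and 3882 RPKM in BF. All 3 were lower in BF at each time, and LOC298109 differed most at 12 h, by a log2 ratio of -3.42. These genes are near copies of one another, and how reads that fit several copies were counted is not given in the sources used here. LOC298109 and OBP3 lie on chromosome 5 with 9 coding genes between them in RefSeq.

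The sex-biased list held 30 compared genes, of which 9 were lower and 2 higher at all 4 times, a share of lower genes close to the 27.3% of all genes. Those that met the rule were CYP2C, OBP3, CAR3 and STAC3. CAR3, carbonic anhydrase III, was at 4044, 2502, 300 and 1054 RPKM in Control and 1117, 404, 239 and 385 RPKM in BF. STAC3 was at 173, 28.6, 3.63 and 1.06 RPKM in Control and 45.0, 6.75, 0.03 and 0.62 RPKM in BF, so that both groups were near 0 at 24 h. RUP2, the most abundant of the list, had a mean log2 ratio of -0.61. CYP2C12, the female-predominant P450, was at 10.3, 12.2, 330.3 and 126 RPKM in Control and 247, 549, 313 and 224 RPKM in BF. BF was above Control at 0, 4 and 24 h and not at 12 h.

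**Figure D4:**
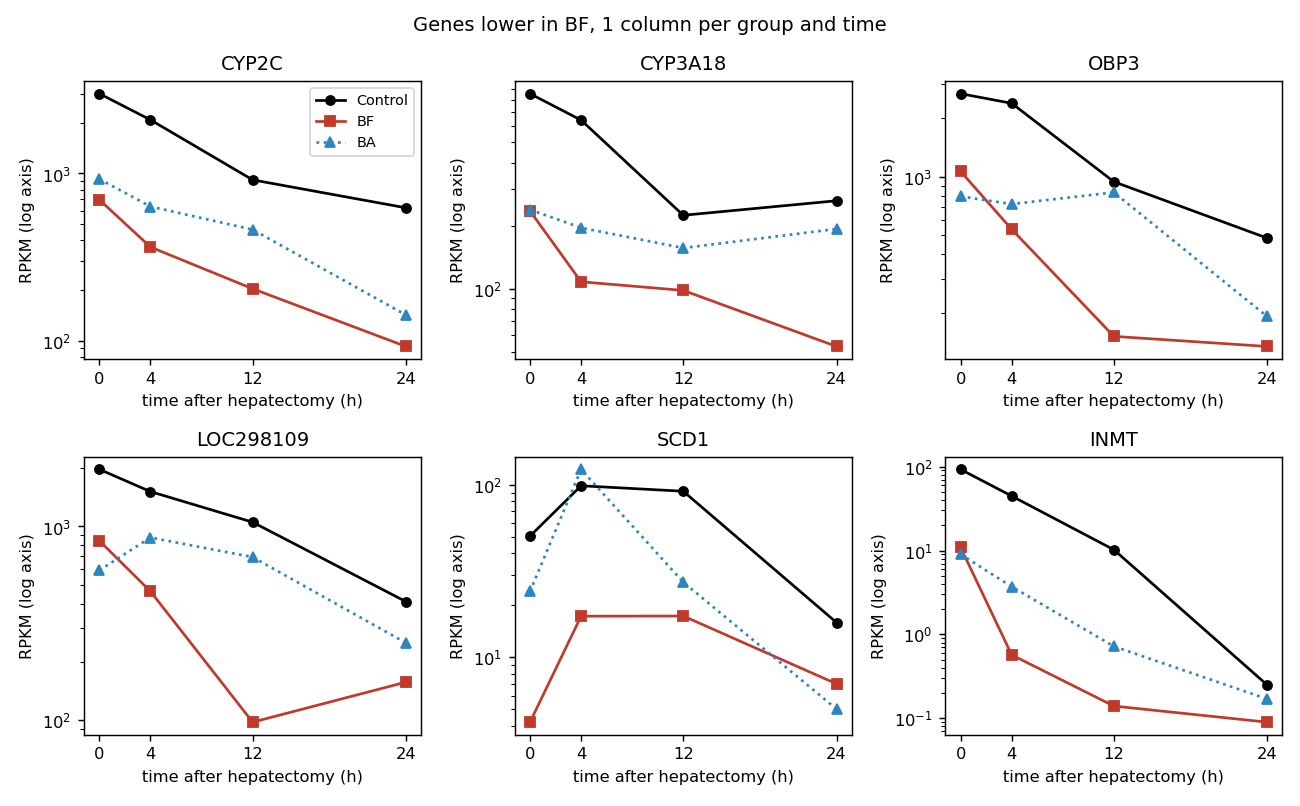
RPKM on a log axis of CYP2C, CYP3A18, OBP3, LOC298109, SCD1 and INMT by time after PH in hours. Each point is 1 column, for Control (black), BF (red) and BA (blue, dotted). BF lies under Control at all 4 times in each panel, and INMT is near 0 in both groups at 24 h, at 0.25 and 0.09 RPKM.

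Enzymes of lipid and ester metabolism formed a further part of the lower genes. SCD1, which desaturates stearoyl-CoA, was at 50.4, 98.7, 91.7 and 15.9 RPKM in Control and 4.21, 17.3, 17.4 and 7.02 RPKM in BF. It was the only gene of the 15 in the fatty acid synthesis list that was lower at all 4 times. A separate row of that list, SCD, matches the same RefSeq gene, Scd, and was not lower at all 4 times. BA columns of SCD1 were at 24.1, 123, 27.3 and 5.01 RPKM, above Control at 4 h. The carboxylesterases, which cleave ester drugs and stored lipid, counted CES3 (Ces1d) and LOC100125372 (Ces1f), beside a row named esterase 1, ES1. ES1 was at 2046, 1451, 589 and 787 RPKM in Control and 799, 439, 186 and 350.0 RPKM in BF. CES3 had a mean log2 ratio of -1.79 and LOC100125372 of -1.85. These lie on chromosome 19, with 1 coding gene between them.

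ABCG5, which with ABCG8 exports sterols into bile, was at 30.7, 24.9, 3.59 and 13.8 RPKM in Control and 6.12, 4.11, 2.20 and 6.23 RPKM in BF. BA columns were at 4.00, 2.15, 2.08 and 7.68 RPKM. Its partner ABCG8 was far less abundant, at 0.50 to 5.17 RPKM in Control and 0.39 to 0.98 RPKM in BF. Of the 11 genes in the BA transport list, 0 were higher and 2 lower at all 4 times. SLC10A1, the uptake transporter and the most abundant of them, had a mean log2 ratio of -0.04.

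Conjugating and methylating enzymes were represented by INMT, GSTM2, RGD1307603 and METTL7B. INMT, which methylates amines, was at 92.7, 44.6, 10.2 and 0.25 RPKM in Control and 10.9, 0.57, 0.14 and 0.09 RPKM in BF, the largest mean difference among the lower genes, -2.83 ± 1.94 (SD over the 4 times). The glutathione transferase GSTM2 was at 825, 655, 235 and 353 RPKM in Control and 242, 151, 69.8 and 142 RPKM in BF. BA columns of INMT were at 9.01, 3.71, 0.72 and 0.17 RPKM. Those of GSTM2 were at 178, 179, 142 and 143 RPKM. For both genes BA was under Control at each time. RGD1307603 (Gstp3) had a mean log2 ratio of -1.37 and METTL7B of -1.51. In the BA columns these means were -1.85 and -1.68. In the phase II list 6 of 28 genes were lower and 1 higher at all 4 times.

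CCND1 and CDKN1A of the cell cycle list met the rule, and 3 of its 18 genes were lower and 0 higher at all 4 times. CCND1, cyclin D1, which drives entry into the cycle, was at 24.6, 9.33, 11.2 and 49.9 RPKM in Control and 4.03, 3.58, 6.71 and 17.2 RPKM in BF. CDKN1A, the p53 target and cyclin kinase inhibitor p21, was at 9.24, 67.2, 27.8 and 86.8 RPKM in Control and 7.41, 24.0, 7.93 and 30.4 RPKM in BF. CDKN1A had a log2 ratio of -0.28 at 0 h and of -1.45, -1.69 and -1.49 later. BA columns of CDKN1A were at 7.98, 70.9, 14.2 and 78.9 RPKM, and those of CCND1 at 14.3, 0.83, 10.7 and 19.1 RPKM. The third gene lower at all 4 times was CDKN1B, at -0.27.

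The clock output factor DBP was at 77.6, 17.9, 14.6 and 29.3 RPKM in Control and 29.1, 3.57, 6.98 and 3.10 RPKM in BF. RGD1566380 (Ciart), a repressor in the clock, was at 1.17 to 5.14 RPKM in Control and 0.35 to 1.01 RPKM in BF. In the circadian list 3 of 14 genes were lower and 0 higher at all 4 times, and NFIL3, the most abundant, was higher at 2 times and lower at 2. The time of day of each liver is not given in the sources used here.

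Of the other lower genes, some are of the matrix, some of signalling and some of metabolism. Lysyl oxidase, LOX, which crosslinks collagen, was at 15.2, 8.80, 4.60 and 17.8 RPKM in Control and 3.74, 2.54, 1.13 and 5.37 RPKM in BF, one of the steadiest differences, with an SD over the times of 0.17. BA columns of LOX were at 3.45, 6.60, 8.14 and 3.84 RPKM, above Control at 12 h. OMD, a keratan sulphate proteoglycan, was at 6.82 to 18.8 RPKM in Control and 1.43 to 5.06 RPKM in BF. PIK3R1, the regulatory subunit of PI3 kinase, was at 41.2, 100.01, 28.2 and 22.7 RPKM in Control and 18.8, 16.7, 12.9 and 18.5 RPKM in BF. DHRS7, a short-chain dehydrogenase, widened from a log2 ratio of -0.16 at 0 h to -3.90 at 24 h. BA columns of DHRS7 were at 161.5, 60.1, 153 and 110 RPKM, above Control at 12 and 24 h.

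RGD1309362 was at 51.6, 12.9, 1.17 and 2.87 RPKM in Control and 2.45, 1.27, 0.03 and 1.5 RPKM in BF. SLC35C2, a Golgi nucleotide sugar transporter family member, was at 19.8 to 39.2 RPKM in Control and 8.57 to 9.74 RPKM in BF, with no overlap. The remaining 8 had mean log2 ratios between -1.40 and -1.09. They were NREP, ZBTB16, LOC297568 (Mug1l1), CCDC68, USP18, ANKH, TYMP and the elastase CELA1. CELA1 belongs to the pancreatic acinar marker set and was at 6.03 RPKM in BF at 12 h, so the high marker sum of that column is not carried by it.

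In Control alone, 23 of the 37 lower genes were at least 2-fold lower and 2 at least 2-fold higher at 24 h than at 0 h, as were 3.03% and 8.29% of all genes. Of the 21 higher genes, 1 was lower and 6 were higher in this way. The Control values are part of the rule, so nothing is read from these counts. Just inside the limit on the third largest ratio lay BCKDHB, a subunit of branched-chain keto acid dehydrogenase, a log2 size that rounds to 1.00, and SLC1A2, at 1.02. Just outside lay PCK2, the mitochondrial form of PEPCK, which also rounds to 1.00, and complement C4B, at 0.99, both higher in BF. PCK2 was at 6.87, 5.27, 9.39 and 18.7 RPKM in Control and 20.4, 17.3, 19.8 and 22.2 RPKM in BF.

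A fit in limma with time as a pair over all 8459 genes called 1 gene higher and 7 lower in BF at a Benjamini-Hochberg adjusted p of at most 0.05, or 0.0118% and 0.0828%. The error in this fit is how far the difference varies between the times, not between rats. The gene higher was CYP8B1 and the lower ones were OMD, LOX, CYP2C, RGD1307603, GSTM2, PFKM and ES1. All 8 are among the 58 genes, and since this is the contrast that chose them it is no further evidence. At an unadjusted p under 0.05 there were 1863 genes, 22.0% of those compared. In the lists the fit called CYP8B1 in BA synthesis, CYP2C in the P450 and sex-biased lists and GSTM2 in phase II. With the BF columns shifted to a median ratio of 0 the fit called 1 higher and 3 lower. With all columns rescaled on their totals without the 10 most abundant genes, it called 11 higher and 16 lower.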

How the data were processed

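Poly(A) RNA of whole liver was sequenced with 50-cycle single reads, and the authors deposited 1 table of RPKM values for 12 columns, each their combination of 2 runs covering 4 rats. Per the labels' processing notes, CASAVA, Bowtie 0.12.2 and the builds rn4 and mm8 were used, with no roles given. RPKM divides by the total of each library, and the 10 most abundant genes held 29.4% to 41.0% of the summed RPKM of a column, so those genes weigh on the rest.

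The table lists 14692 genes, of which 1 lacked a value and 2303 stood at 0 throughout. Genes were kept where the mean over the columns reached 1 RPKM, and BF and Control were compared as log2(RPKM + 1) at equal times. The fit used limma 3.58.1 in R 4.3.3 with time as a factor and a trend in the variance. It was also run on simulated columns, with a log2 change of 2 in 200 genes and a noise SD of 0.3. There it found 100% of the changed genes and called 4 unchanged ones. Differences that vary over time, as in these columns, were not simulated. Genes named are the 15 with the highest and lowest mean ratio, those in a list, families of 3 or more, those nearest the limit, called genes and the most abundant gene of each list, some of which are not reported here; others were named after their values were seen. Members and lists were chosen with earlier results of these data known. Lists were to be described by the calls of the fit, and the counts at all 4 times were added after that fit had been seen. Of the 58 genes, 56 matched RefSeq GRCr8, 53 by symbol or synonym and 3 by gene ID. The motifs marked and the promoters shown were partly changed after a first search. That search marked TCACNCCAC and CCAAT, for the promoters of HMGCS1, SC4MOL, MVD, CYP7A1 and CYP8B1. Alternatives are given in the closing section.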

Additional observations from a re-analysis of the deposited data

How the results depend on the processing

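Each value is 1 combined column, so the spread between rats and the depth are unknown and limit every comparison. A 2-fold limit at all 4 times left 8 higher and 14 lower genes, and a 1.5-fold limit at 3 or more gave 68 and 99. With 5 RPKM added, the rule picked 11 higher and 22 lower genes, all among the 58, and the fit called 2 higher. With a pair of columns left out, the rule asked for 3 times of one sign and 2-fold at 2, and picked 30 to 58 higher and 47 to 92 lower genes. The fit then called 0 to 13 higher and 0 to 20 lower, with 0 and 0 without the 0 h or the 4 h pair and 13 and 20 without the 12 h pair. Without a filter on low values the fit called 0 higher and 0 lower, and at a mean of at least 5 RPKM 7 and 14. With the BF columns shifted to a median ratio of 0 it called 1 and 3. With all columns rescaled on their totals without the 10 most abundant genes it called 11 and 16. Without the time term it called 1 higher and 0 lower, and without trend 2 higher. The fit's calls depend on these settings. With the BA columns in place of BF, as the sample descriptions would have it, the rule picked 10 higher and 33 lower genes, of which 4 and 13 were among the 21 and 37, and the fit called 2 lower. The mean log2 ratio then was -0.0925 for CYP8B1 and -0.51 for CYP7A1, whereas 56 of the 58 genes kept their sign against the same Control columns. Apart from that exchange, the mean ratio of the 58 genes kept its sign under each alternative in which it was computed. The rule asks for one sign at all 4 times, so most of these alternatives could not change that sign. Only the shift of the BF columns and the rescaling of totals could have done so. The cause of the differences was not tested.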

Other observations

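Gene groups outside the pathways above were described by the same counts, beside 5.6% of all genes higher and 27.3% lower in BF at all 4 times, and no test was made of them. In the DNA replication list 0 of 35 genes were higher and 2 lower at all 4 times, yet the median log2 ratio of the list was -1.12 at 24 h, against 0.26 at 12 h and -0.13 at 4 h. PCNA, the sliding clamp of the replication fork and the most abundant gene of the list, had a mean of -0.67. In the interferon list 9 of 19 genes were lower and 0 higher at all 4 times, among them IRF7, at -0.70, and IFI27L1, the most abundant, at -0.57. In the Hippo list 9 of 19 were lower and 1 higher, with small differences: the median of the list was -0.18 and YWHAE, its most abundant gene, was at -0.28. In the list of AP-1 and immediate early genes 4 of 20 were lower and 0 higher, and DUSP1, a phosphatase of MAP kinases, was at -0.15.

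In the iron and heme list 5 of 12 genes were higher and 0 lower at all 4 times, and hemopexin, HPX, the most abundant, was at 0.90. Haptoglobin, HP, the most abundant acute phase gene, was at 0.83 and higher at 3 times. Fatty acid oxidation had 2 of 26 higher and 2 lower, with FABP1 at 0.04, and THRSP of fatty acid synthesis was at -0.69. The urea cycle and amino acid list had 1 of 34 higher and 6 lower, with HPD at -0.07, and apolipoproteins had 3 of 19 higher and 4 lower, with APOE at -0.19. ER stress genes had 1 of 19 higher and 3 lower, with CALR at 0.16, and NRF2 targets 1 of 18 and 4, with FTH1 at 0.18. The BA sensing list had 2 of 15 higher, KNG1 and NR1H3, and 2 lower, HNF4A and NR1I2. Albumin, ALB, was at -0.15. BAAT, which conjugates bile acids, was at -0.21 and SULT1E1, the most abundant phase II gene, at -0.14. AKR1D1, which reduces the steroid ring in bile acid synthesis, was at 0.86 and higher at 3 times.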
